A study of Mus musculus with 6 samples.

Results

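The data describe 10 genes of the Notch pathway in whole ovaries of mice at day 1: the ligand genes Jag1 and Jag2, the receptor genes Notch1, Notch2 and Notch3, the target genes Hes1, Hey1, Hey2 and Heyl, and Lfng, whose enzyme adds sugars to the receptors. They were chosen by symbol, and all 10 were found among the 25164 gene symbols of the table. Transcript levels were measured by RNA sequencing in 6 libraries of C57BL/6 ovaries. The 3 libraries called cKO here carry the label hnRNPL flox/flox;Stra8-cre, and the 3 others are labelled wild type. Stra8-cre expresses Cre recombinase in germ cells, so the floxed gene is targeted there and not in the somatic cells that make up the rest of the tissue. The wild type label names neither the floxed allele nor the transgene, and no label says that the replicates are different animals. Any p-value here thus rests on library-to-library spread, which may be technical. The protocol also speaks of a hormone challenge that is not described further.

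Notch signalling passes between cells that touch. A membrane-bound ligand (Jagged or Delta-like) on one cell opens a Notch receptor on its neighbour to cutting by ADAM proteases and gamma-secretase. The freed intracellular part joins RBPJ in the nucleus and turns on repressors of the HES and HEY families. In the newborn mouse ovary the pathway is known for signalling from oocytes, which carry Jagged ligands, to pregranulosa cells, which carry NOTCH2, while germ cell nests break up into primordial follicles. Blood vessels use it too: DLL4, NOTCH1 and NOTCH4 belong to endothelial cells, and NOTCH3 and HEYL to the mural cells around them.

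Values are FPKM, fragments per kilobase of transcript, scaled to the mapped fragments of the library, so levels can be set side by side between genes. The FPKM steps of low genes put depth at about 7200000 to 12300000 fragments in the cKO libraries and 11100000 to 14400000 in wild type. In cKO replicate 1, the shallowest library, the median of the 12442 tested genes was 8.40 FPKM, against 6.85 to 7.09 in the other 5. It also held the highest cKO value for 8 of the 10 Notch genes. Results are therefore given as deposited and also after median-of-ratios scaling, which divides each library by its typical ratio to the mean of all libraries. Hnrnpl itself stood at 100.5, 81.5 and 85.2 FPKM in cKO, with wild type at 104.1, 93.8 and 101.9 FPKM (log2 fold change -0.17, SE 0.13, limma adjusted p = 0.571), and the groups overlapped. Scaled, Hnrnpl was lower in every cKO library, at 85.5, 84.2 and 87.5 with wild type at 105.3, 95.4 and 107.4, and the difference of -0.26 (SE 0.08) did not pass either (limma adjusted p = 0.150). The ovary carried its somatic markers in every library, with Amhr2 at 91.6 ± 18.0 FPKM in cKO (72.8 ± 0.514 in wild type) and Gata4 at 86.0 ± 8.42 and 76.4 ± 5.01 FPKM (SD, n = 3).

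The 10 genes spanned a wide range of levels. In wild type ovaries Hes1 was highest at 49.6 ± 2.35 FPKM, followed by Notch2 at 37.1 ± 1.21 FPKM and Jag2 at 10.5 ± 1.497 FPKM (SD, n = 3). Heyl, Notch3, Notch1, Hey1, Jag1, Lfng and Hey2 came next in that order, down to 1.70 ± 0.459 FPKM for Hey2. Neighbours in this order whose libraries overlapped were Heyl and Notch3, Notch3 and Notch1, Hey1 and Jag1, and Lfng and Hey2. In cKO ovaries the order began with the same 3 genes and ended with Jag1, Lfng and Hey2. In between, Notch1, Heyl, Hey1 and Notch3 overlapped their neighbours. Among all tested genes Hes1 ranked at percentile 95.4 by mean level and Notch2 at 91.6, while Lfng and Hey2 ranked at 9.86 and 4.13.

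The comparison of cKO with wild type asks how these genes stand when Hnrnpl is targeted in germ cells. Jag2 was at a higher level in every cKO library than in any wild type library, as was Hes1. Jag1, Notch1, Notch2, Notch3, Hey2, Heyl and Lfng were lower in every cKO library than in any wild type library, and Hey1 overlapped. Thus 9 of 10 genes had groups that did not overlap, 2 higher and 7 lower, where 15.5% of all tested genes lay higher and 7.03% lower in that way. After median-of-ratios scaling the counts were again 2 and 7, against 12.6% and 13% of all genes. The genes were picked with earlier results of these libraries known, so these counts are a description and not a test.

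None of the 10 passed limma's test over all 12442 genes at an adjusted p under 0.05, a threshold passed by 0.0482% of genes as higher and 0.0723% as lower. At an unadjusted p under 0.05 there were 8 of the 10, against 14.2% of all genes, and scaled 9, against 18.9%. After median-of-ratios scaling 2 genes passed: Jag2 rose and Jag1 fell, where 0.764% of all genes passed as higher and 0.53% as lower. The median log2 fold change over the 10 genes was -0.32, against 0.08 over all tested genes, and after scaling it was -0.39 against 0.00. The exact permutation test of a single gene cannot go below p = 0.1 with 3 libraries against 3. That value was reached by all 9 genes without overlap, and Hey1 gave exact p = 0.5.

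**Figure D1:**
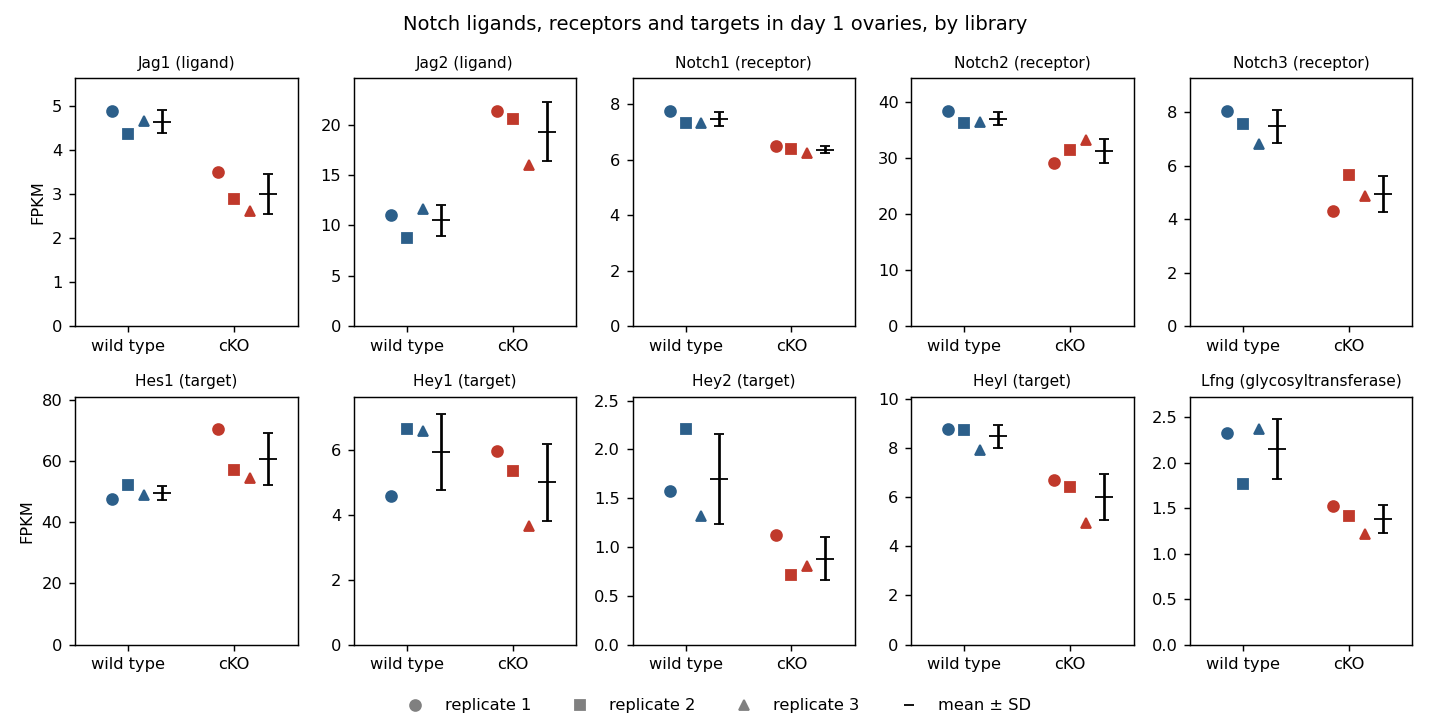
FPKM of each of the 10 genes (y axis, from 0, a separate scale per panel) in the 3 wild type and 3 cKO libraries, with replicates as symbols and the mean ± SD beside them. The groups are apart in every panel but that of Hey1, with cKO above wild type for Jag2 and Hes1.

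Both Jagged ligands are transmembrane proteins that activate Notch receptors on neighbouring cells. Jag2 (ENSMUSG00000002799, GRCm38 chromosome 12, 112907819 to 112929776, minus strand) stood at 21.4, 20.6 and 16.0 FPKM in cKO replicates 1, 2 and 3. In wild type it stood at 11.1, 8.78 and 11.6 FPKM. The lowest cKO library, replicate 3, thus lay above the highest wild type library. The mean ratio of cKO to wild type was 1.84, and the log2 fold change of FPKM + 1 was 0.82 (SE 0.15, limma adjusted p = 0.087). Scaled, the cKO libraries were at 18.2, 21.2 and 16.4 and the wild type libraries at 11.2, 8.94 and 12.2, a rise of 0.74 on the log2 scale (SE 0.13, limma adjusted p = 0.043). Without cKO replicate 3 the unscaled difference also passed, at 0.94 (limma adjusted p = 0.0444).

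Jag1 (ENSMUSG00000027276, GRCm38 chromosome 2, 137081456 to 137116644, minus strand) went the other way. It stood at 3.50, 2.88 and 2.61 FPKM in cKO, with wild type at 4.89, 4.37 and 4.65 FPKM. All cKO libraries were below all wild type libraries, with a mean ratio of 0.647 and a log2 fold change of -0.50 (with SE 0.12 and limma adjusted p = 0.154). Scaling brought the cKO libraries closer together, to 2.98, 2.97 and 2.68, against 4.94, 4.44 and 4.89 in wild type. On that scale Jag1 fell by 0.57 (log2, SE 0.10, limma adjusted p = 0.0395).

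The ratio of the ligand genes within a library does not change when all its genes are divided by a common factor, as in median-of-ratios scaling. Jag2 stood at 6.10, 7.15 and 6.12 times Jag1 in the cKO libraries and at 2.27, 2.01 and 2.50 times Jag1 in wild type. Of the summed FPKM of the 5 Jagged and Delta-like genes, Jag2 made up 68.3% to 75.1% in cKO and 45.5% to 53.7% in wild type. Jag1 made up 10.5% to 11.3% in cKO and 21.1% to 22.6% in wild type. Dll4, the Delta-like ligand of endothelial cells, made up 8.38% to 14.05% and 19.4% to 26.1%. These shares were looked at after the directions of Jag1 and Jag2 were known, so no test is given.

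**Figure D2:**
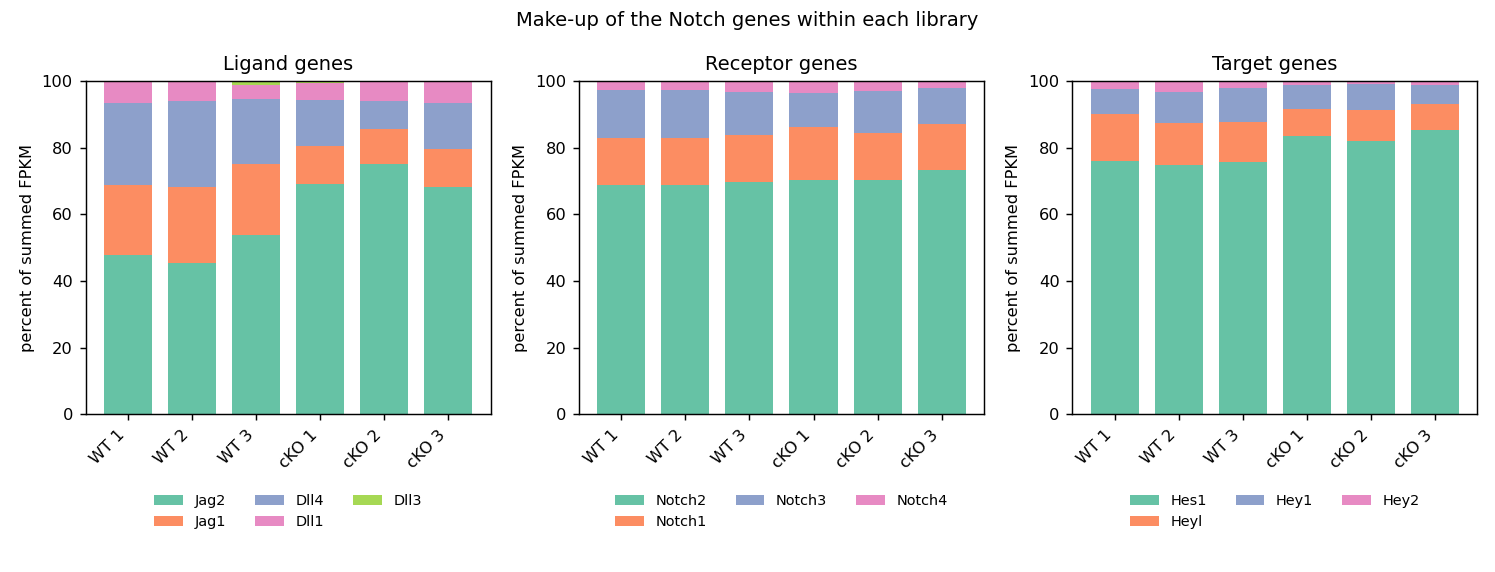
Share of each gene in the summed FPKM of the Jagged and Delta-like ligand genes (without Dlk1), the receptor genes or the target genes (y axis, percent) in each of the 6 libraries. Jag2 takes 68.3% or more of the ligand sum in the cKO libraries and 53.7% or less in wild type, whereas Notch2 holds 68.9% to 73.3% of the receptor sum in all 6.

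Libraries of this tissue mix germ cells with several somatic types, and in bulk samples fewer cells of a type and less RNA per cell cannot be told apart. Of 12 germ cell markers, 6 were higher in cKO and 2 lower without overlap, as deposited and scaled, where all tested genes gave 15.5% and 7.03% as deposited and 12.6% and 13% scaled. Their summed level as deposited was 202 to 359 FPKM in cKO, with wild type at 164 to 178 FPKM, with none of the 12 at 0 in any library. The most abundant of them were Kit, the stem cell factor receptor of oocytes, at 61.1 ± 12.2 and 37.1 ± 1.14 FPKM, and Sycp3, of the synaptonemal complex, at 51.1 ± 15.1 and 28.2 ± 3.19 FPKM (SD, n = 3). As deposited neither passed the test (limma adjusted p = 0.139 and 0.192). Of the 12 markers 1 did, Zp3, of the oocyte coat, which fell by 1.51 on the log2 scale (limma adjusted p = 0.0437). Of all tested genes 0.0723% passed as lower. After scaling 4 germ cell markers passed as higher, Kit among them (0.60, limma adjusted p = 0.0223), and 2 as lower. Over all tested genes 0.764% passed as higher and 0.53% as lower after scaling. Zp3 was chosen after its values were seen. The part of germ cell content in the values of Jag2 and Jag1 was not tested.

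The profile of each ligand over the 6 libraries was compared with every tested gene, by the root mean square difference of log2(FPKM + 1) around each gene's own mean. Jag2's own profile had a root mean square of 0.443 on this scale. Nearest to it were Dohh, an enzyme that modifies a translation factor, at a difference of 0.0721, Slc25a18, a mitochondrial glutamate carrier, at 0.0773, and Tdrd9, a helicase of the germ cell piRNA pathway, at 0.0996. For Jag1, with 0.270, they were Loxl2, a lysyl oxidase of the extracellular matrix, at 0.0256, Slfn9, of the Schlafen family, at 0.0329, and Wnt2b, a WNT ligand, at 0.0465. With 6 libraries and 12442 genes close profiles are always found, so this only names neighbours.

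The 3 receptor genes encode the proteins that are cut on ligand binding and carry the signal to the nucleus. Notch2 (ENSMUSG00000027878, GRCm38 chromosome 3, 98013527 to 98150361, plus strand), the receptor of pregranulosa cells, was by far the most abundant. It stood at 29.1, 31.4 and 33.2 FPKM in cKO, with wild type at 38.4, 36.2 and 36.5 FPKM. The highest cKO library lay below the lowest wild type library, with a ratio of 0.843. The log2 fold change was -0.24 (with SE 0.10 and limma adjusted p = 0.351). Scaled, the difference was -0.33 (SE 0.12, limma adjusted p = 0.200). Over the alternatives it ran from -0.36 with quantile normalization to -0.19 without cKO replicate 1. An exon of the predicted gene Gm42820 overlaps Notch2 on the same strand.

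Notch1 (ENSMUSG00000026923, GRCm38 chromosome 2, 26457903 to 26516663, minus strand) stood at 6.49, 6.38 and 6.24 FPKM in cKO, with wild type at 7.77, 7.31 and 7.34 FPKM. The libraries of a group were close together, and the groups were separated by a small gap. The log2 fold change was -0.20 (SE 0.09, limma adjusted p = 0.350), and scaled it was -0.28 (SE 0.09, limma adjusted p = 0.157).

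Notch3 (ENSMUSG00000038146, GRCm38 chromosome 17, 32120820 to 32166852, minus strand), the receptor of pericytes and vascular smooth muscle, had the largest log2 difference of the 3. It stood at 4.32, 5.66 and 4.86 FPKM in cKO, with wild type at 8.06, 7.56 and 6.83 FPKM, a ratio of 0.661. Its log2 fold change, -0.52 with an SE of 0.12, missed the threshold as deposited (limma adjusted p = 0.148) or scaled (-0.59, SE 0.14, limma adjusted p = 0.0915). Annotated exons on the opposite strand overlap those of Notch1 and Notch3, and it is not stated whether fragments were counted by strand.

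The receptor pool was led by Notch2 in every library. Notch2 made up 70.3% to 73.3% of the summed FPKM of the 4 Notch receptor genes in cKO and 68.9% to 69.8% in wild type. Notch3 made up 10.5% to 12.6% and 13.0% to 14.4%, and Notch1 overlapped at 13.8% to 15.7% and 13.9% to 14.02%. Summed over the receptors, levels were 41.3 to 45.3 FPKM in cKO, with wild type at 52.3 to 55.8 FPKM. Receptor transcripts stood at 1.34 to 1.94 times the ligand transcripts in cKO and at 2.41 to 2.72 times in wild type.

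**Figure D3:**
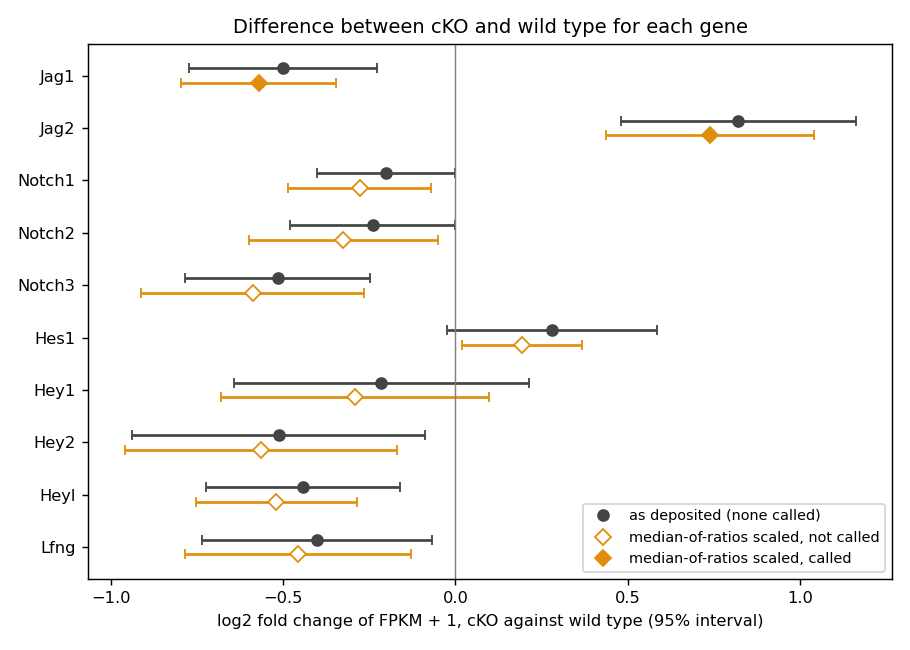
Log2 fold change of FPKM + 1 between cKO and wild type (x axis) for each gene, with its 95% interval from limma, as deposited (circles) and after median-of-ratios scaling (diamonds, filled where the adjusted p is under 0.05). Jag2 and Hes1 lie above 0 and the other 8 genes below it, and only the scaled values of Jag1 and Jag2 are filled.

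The target genes encode basic helix-loop-helix repressors, and Lfng is both a target in many tissues and a modifier: its fucose-specific N-acetylglucosaminyltransferase alters which ligands a Notch receptor answers to. RBPJ, the DNA-binding partner of all Notch receptors, is known to bind GTGGGAA. That motif is shown here because it is the link from receptor to target. Promoter sequences from RefSeq (GRCm38.p6, 250 bases before to 50 after the start) matched 7 of the 10 genes, all but Hes1, Hey1 and Heyl. GTGGGAA or its reverse complement TTCCCAC lay in 2 of the 7 windows, those of Lfng and Hey2, and in 6.38% of all 32851 promoter windows of the same 300 bases. A match in letters is a description and not a bound site. In the lines below the match is in capitals, 5′ to 3′ on the strand of the gene.

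Lfng, chr5:140607091-140607319, plus strand: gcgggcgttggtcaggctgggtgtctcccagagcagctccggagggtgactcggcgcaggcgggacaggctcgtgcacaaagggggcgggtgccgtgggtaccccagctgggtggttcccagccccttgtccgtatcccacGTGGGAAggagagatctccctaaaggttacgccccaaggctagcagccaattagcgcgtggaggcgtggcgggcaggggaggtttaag
Hey2, chr10:30842802-30843033, minus strand: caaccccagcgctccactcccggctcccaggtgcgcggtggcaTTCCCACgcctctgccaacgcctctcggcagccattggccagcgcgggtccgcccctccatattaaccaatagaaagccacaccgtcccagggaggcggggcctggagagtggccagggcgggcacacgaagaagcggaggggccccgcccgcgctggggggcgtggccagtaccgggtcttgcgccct
Hey2, chr10:30842770-30842799, minus strand: ctgggctgcagcGTGGGAAagaacctccag

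The Lfng match begins 109 bases before the RefSeq start, and its first 3 bases are also the last 3 of a CACGTG, an E-box that 7.15% of all promoter windows hold. Hey2 has matches that begin 207 bases before the start, in reverse orientation, and 4 bases before it.

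Hes1 (ENSMUSG00000022528, GRCm38 chromosome 16, 30064384 to 30067796, plus strand) stood apart from the other targets. Its values were 70.5, 57.3 and 54.5 FPKM in cKO, with wild type at 47.6, 52.2 and 49.0 FPKM. Each cKO library exceeded each wild type library, with replicate 1 well above the others. The log2 fold change was 0.28 (SE 0.13, limma adjusted p = 0.383), and it was 0.17 without cKO replicate 1 and 0.16 with quantile normalization. After scaling, which lowers that replicate, Hes1 stood at 59.97, 59.2 and 56.0 in cKO and in wild type at 48.1, 53.1 and 51.6 (log2 fold change 0.19, SE 0.08, limma adjusted p = 0.222).

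Heyl (ENSMUSG00000032744, GRCm38 chromosome 4, 123233556 to 123249875, plus strand), a target of NOTCH3 in vascular smooth muscle, stood at 6.70, 6.40 and 4.95 FPKM in cKO, with wild type at 8.78, 8.75 and 7.93 FPKM. The groups did not overlap, and the log2 fold change was -0.44 (SE 0.12, limma adjusted p = 0.200). Scaled, it was -0.52 (SE 0.10, limma adjusted p = 0.0537), just outside the threshold, and with quantile normalization it passed (-0.53, limma adjusted p = 0.0432).

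Hey2 (ENSMUSG00000019789, GRCm38 chromosome 10, 30832359 to 30842801, minus strand), a repressor of arterial and heart development, was the lowest of the 10 genes. It stood at 1.12, 0.714 and 0.806 FPKM in cKO, with wild type at 1.58, 2.21 and 1.31 FPKM, a ratio of 0.519. On its longest annotated transcript these values correspond to about 20.6, 19.7 and 25.3 fragments in cKO and 57.9, 77.6 and 37.1 in wild type. The log2 fold change was -0.51 (with SE 0.18 and limma adjusted p = 0.284). This understates the ratio, since 1 is added to values near 1, and a pseudocount of 0.1 FPKM gave -0.87. Scaled, with 1 added, the difference was -0.56 (SE 0.17, limma adjusted p = 0.140).

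Hey1 (ENSMUSG00000040289, GRCm38 chromosome 3, 8663359 to 8667256, minus strand), the close relative of Hey2, stood at 5.96, 5.35 and 3.65 FPKM in cKO, with wild type at 4.58, 6.62 and 6.57 FPKM. Wild type replicate 1 lay below 2 of the 3 cKO libraries. The log2 fold change of -0.22 had a 95% interval from -0.64 to 0.21 (limma adjusted p = 0.606), which holds differences in either direction. The value moved with single libraries, to -0.04 when cKO replicate 3 was left out and -0.33 when cKO replicate 1 was. Leaving out wild type replicate 1 gave -0.36 and replicate 2 gave -0.14, and Hey1 passed in none of these fits. Scaled, over all libraries, the difference was -0.29 (SE 0.17, limma adjusted p = 0.394).

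Lfng (ENSMUSG00000029570, GRCm38 chromosome 5, 140607320 to 140615545, plus strand) stood at 1.52, 1.41 and 1.21 FPKM in cKO, with wild type at 2.32, 1.77 and 2.37 FPKM. The groups did not overlap, with a ratio of 0.642 and a log2 fold change of -0.40 (with SE 0.14 and limma adjusted p = 0.285). Its values stand for about 25.2 to 35.2 fragments in cKO and 56.2 to 77.0 in wild type. Scaled, the log2 fold change of Lfng was -0.46 (SE 0.14, limma adjusted p = 0.148).

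Within the libraries, the shares of the 4 HES and HEY genes set Hes1 apart from Heyl and Hey2. Hes1 made up 82.1% to 85.3% of their summed FPKM in cKO and 74.8% to 76.1% in wild type. Heyl made up 7.74% to 9.19% and 12.2% to 14.04%, and Hey2 1.02% to 1.33% and 2.03% to 3.16%. The share of Hey1 overlapped, at 5.71% to 7.67% and 7.32% to 10.1%. Hes1 stood at 8.94 to 11.01 times Heyl in cKO and at 5.42 to 6.18 times Heyl in wild type. Dividing all genes of a library by a common factor cannot alter this ratio. It sets Hes1, higher in cKO, against Heyl, lower in cKO, so it restates their directions and no test is given.

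A further 42 genes of the pathway, from other ligands to nuclear partners, gave 39 that could be tested, and 0 of them passed limma's test in either direction, as deposited or scaled. At an unadjusted p under 0.05 there were 4 of 39, where all tested genes gave 14.2%, and after scaling 7 of 39, where all gave 18.9%, so neither count exceeds the background. Of the 39, 21 had positive and 18 negative log2 fold changes with a median of 0.02, against 0.08 over all tested genes. After scaling these were 13 and 26 with a median of -0.06, against 0.00, so the split by sign rests on the scaling. Without overlap between groups 4 were higher and 1 lower, against 15.5% and 7.03% of all genes. After scaling these were 3 and 8, against 12.6% and 13%. Dll3, Hes5 and Hes7 had means under 1 FPKM and were not tested.

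Among the other ligands Dll4 stood at 4.23, 2.29 and 3.29 FPKM in cKO, with wild type at 5.72, 5.04 and 4.19 FPKM. Wild type replicate 3 lay just under cKO replicate 1, and the log2 fold change was -0.50 (SE 0.18, limma adjusted p = 0.289). Scaled, Dll4 was lower in every cKO library, at 3.60, 2.37 and 3.38 with wild type at 5.79, 5.13 and 4.41, without passing (-0.58, limma adjusted p = 0.0977). Dll1 was low in both groups, at 1.48 to 1.63 FPKM in cKO, with wild type at 0.928 to 1.496 FPKM. Notch4, the endothelial receptor, stood at 0.996 to 1.42 FPKM and 1.48 to 1.66 FPKM without overlap (limma adjusted p = 0.536).

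The shared machinery between receptor and target had log2 fold changes closer to 0 than those of Jag2 or Jag1. Rbpj stood at 12.4, 9.38 and 10.2 FPKM in cKO, with wild type at 9.54, 10.5 and 9.75 FPKM, with a log2 fold change of 0.09 as deposited and 0.01 scaled. The log2 fold changes of the 9 protease genes lay between -0.08 and 0.28, where Aph1b, a subunit of gamma-secretase, had one of 0.25 (limma adjusted p = 0.365). Those of the 9 nuclear genes lay between -0.19 and 0.30, the highest being Kdm1a, a histone demethylase that serves in repressor complexes, at 31.7, 25.9 and 23.8 FPKM in cKO and 21.6 to 21.9 FPKM in wild type. Kdm1a did not pass either (limma adjusted p = 0.339).

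Of the regulators, Fbxw7, the ubiquitin ligase subunit that marks the freed Notch fragment for destruction, had the smallest p of the 39 as deposited, whereas 5 others had smaller ones after scaling, Nrarp the smallest. It stood at 8.496, 9.20 and 7.52 FPKM in cKO, with wild type at 6.22, 6.08 and 6.59 FPKM, without overlap (log2 fold change 0.36, SE 0.10, limma adjusted p = 0.204). Nrarp, a target that feeds back on the Notch complex, stood at 5.40, 3.39 and 3.78 FPKM in cKO, with wild type at 5.23, 6.65 and 5.84 FPKM. Its log2 fold change of -0.43 was on the side of Heyl and Hey2 and did not pass (limma adjusted p = 0.300). Scaled, Nrarp too was lower in every cKO library, at -0.50 (limma adjusted p = 0.0915). Poglut1, a glucosyltransferase of Notch, Neurl1a, a ubiquitin ligase that acts on ligands, and Dtx2, of the Deltex family, had log2 fold changes of -0.26, -0.29 and 0.29 (limma adjusted p = 0.383, 0.408 and 0.436).

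**Figure D4:**
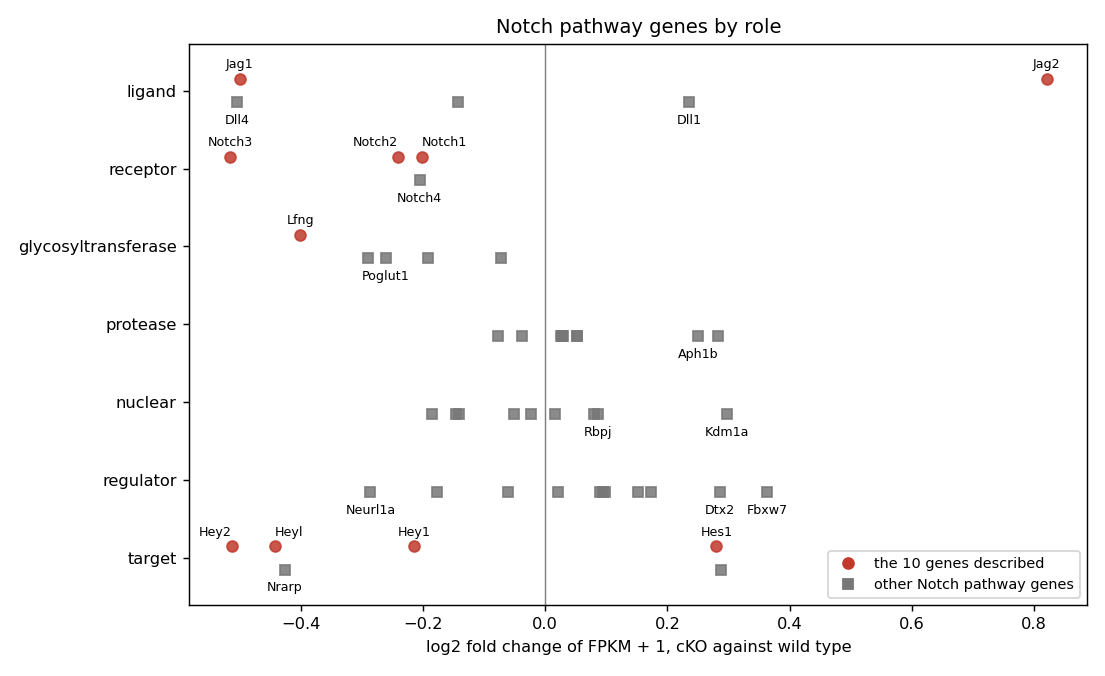
Log2 fold change of FPKM + 1, cKO against wild type (x axis), of the 10 genes described (circles) and 39 other tested Notch pathway genes (squares), in rows by role. The protease, nuclear and regulator genes lie between -0.29 and 0.36, and Jag2, at 0.82, lies to the right of all other genes shown.

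Several Notch genes are known from vessels, and vessel markers had negative log2 fold changes in cKO. Of 14 endothelial markers all 14 had negative log2 fold changes, with a median of -0.35, where 4334 of all 12442 tested genes did. Without overlap 7 were lower, against 7.03% of all genes. After scaling 11 were, against 13%. Their summed level as deposited was 104 to 133 FPKM in cKO, with wild type at 132 to 162 FPKM, so that the sums overlapped slightly. Sums were not taken after scaling, so this overlap may rest on the scaling. The most abundant, Cdh5, the cadherin of endothelial junctions, stood at 19.1 ± 1.64 and 24.8 ± 3.20 FPKM (SD, n = 3), with limma's adjusted p = 0.281. Of 10 pericyte and smooth muscle markers 9 were tested, all with negative log2 fold changes and a median of -0.26. Their sums as deposited were 54.8 to 63.3 FPKM in cKO, with wild type at 74.4 to 81.1 FPKM, without overlap. Acta2, smooth muscle actin, stood at 12.7 ± 0.893 and 17.8 ± 0.869 FPKM (SD, n = 3), with limma's adjusted p = 0.133. None of these markers passed as deposited, and none was at 0 in any library. After scaling only Acta2 passed (-0.54, limma adjusted p = 0.0267), where 0.53% of all tested genes passed as lower. The part of vessel content in the values of Notch3, Heyl, Dll4 and Hey2 was not tested.

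Pregranulosa markers, which stand for the cells that carry Notch2, were split in direction. Of 13, 9 had positive and 4 negative log2 fold changes as deposited, with a median of 0.03, and after scaling 6 were positive and 7 negative. Without overlap 4 were higher and 1 lower, against 15.5% and 7.03% of all genes. After scaling these were 4 and 2, against 12.6% and 13%. Their sums as deposited were 511 to 637 FPKM in cKO, with wild type at 488 to 506 FPKM. Sums were not taken after scaling, so their separation may rest on the scaling. Stroma markers had 9 of 10 negative with a median of -0.34, among them Col3a1, a fibrillar collagen, at 268 ± 20.7 and 341 ± 8.15 FPKM (SD, n = 3), with limma's adjusted p = 0.373. Surface epithelium markers had 7 of 7 negative with a median of -0.56. As deposited 1 of them passed as lower, Upk1b (limma adjusted p = 0.0428), against 0.0723% of all tested genes. After scaling 2 surface epithelium, 2 stroma and 1 pregranulosa marker passed as lower, against 0.53% of all tested genes. The macrophage and erythroid lists had 5 of 6 and 4 of 5 tested markers negative. Of all 12442 tested genes, 4334 had negative log2 fold changes as deposited and 6216 after scaling.

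**Figure D5:**
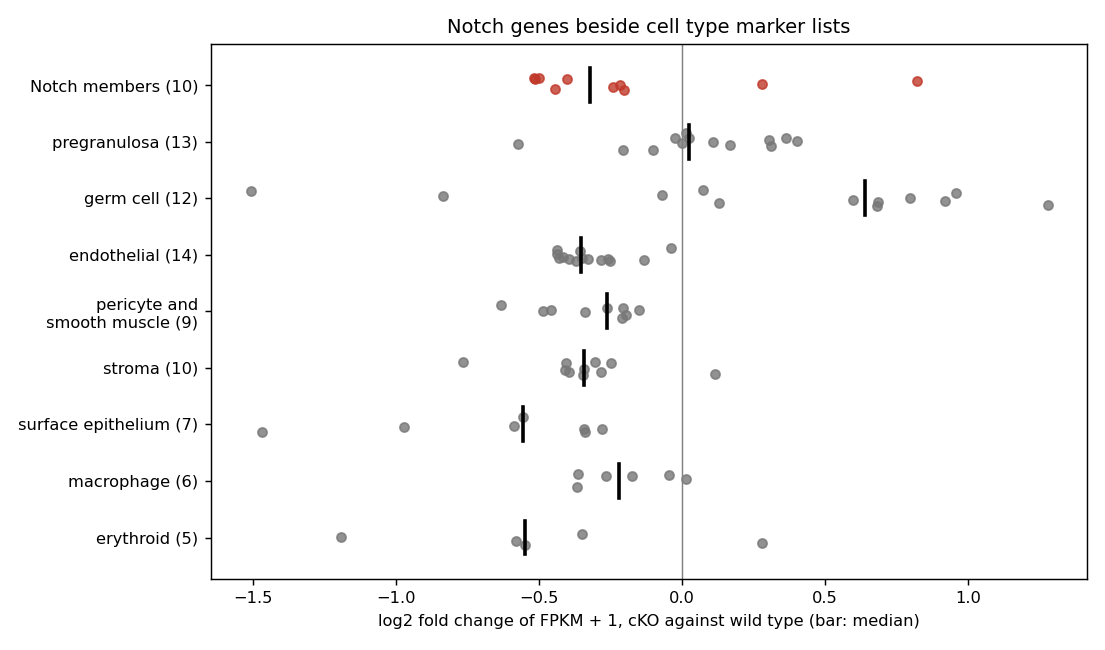
Log2 fold change of FPKM + 1, cKO against wild type (x axis), of the 10 Notch genes and of the tested markers of 8 cell types, each point a gene and each bar the list's median. The Notch genes have a median of -0.32, with Jag2 at 0.82 and Hes1 at 0.28. The medians are -0.35 for endothelial, -0.26 for pericyte and smooth muscle and -0.34 for stroma markers. They are -0.22 for macrophage, -0.55 for erythroid and -0.56 for surface epithelium markers. The pregranulosa median is 0.03 and the germ cell median is 0.64.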

How the data were processed

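The authors deposited FPKM values for 25164 gene symbols in 6 columns, each matched to 1 sample title. The submitters' processing notes name mm10, featureCounts 2.0.6, HISAT2 2.2.1 and STAR 2.7.11a, with no role for any; the program that computed FPKM and the annotation are not given in the sources used here. FPKM scales by length and mapped fragments, so a library rich in short or very abundant transcripts shifts the others. The 12442 genes whose mean reached 1 FPKM were tested as log2(FPKM + 1) with limma-trend (limma 3.58.1 in R 4.3.3), two-sided. P-values were adjusted over all of them by Benjamini and Hochberg's method, and genes under 0.05 were called. The steps were tested on simulated data. Depth was estimated from FPKM steps of 2437 genes that have a single transcript of 1500 bp or longer, with fragments taken as 200 bp; fragments per gene use the longest GENCODE M21 transcript. Printed promoter stretches end before the first base that GENCODE annotates, except the 30-base Hey2 site. By rule the text names the 10 genes, Hnrnpl, and from the other pathway list the 8 with the smallest p and Rbpj, Dll1, Dll4 and Notch4. The rule adds up to 2 of the most abundant markers per list and 3 profile neighbours per ligand. Outside this rule, Zp3, Upk1b and Dlk1 were added after their values were seen, and Dll3, Hes5 and Hes7 as not tested. Members and lists were chosen with earlier results of these data known. Alternatives are given in the closing section.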

Additional observations from a re-analysis of the deposited data

How the results depend on the processing

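Over 137 combinations of the 10 genes and the alternatives, no log2 fold change turned its direction, and 8 crossed the threshold: Jag1 and Jag2 with median-of-ratios scaling, quantile normalization and library weights, Heyl with quantile normalization and Jag2 without cKO replicate 3. Of the 10 genes, 1 was called higher and 1 lower with median-of-ratios scaling and with library weights, and 1 higher and 2 lower with quantile normalization. Leaving out each library gave 0 to 1 higher and 0 lower. The adjusted p of Jag2 ran from 0.0383 to 0.347 and that of Jag1 from 0.0395 to 0.461. A filter at a mean of 5 FPKM removes Jag1, Hey2 and Lfng. Removing a library cannot make separate groups overlap, so counts without overlap were not used as a check of this kind: the share of all genes lower without overlap went from 7.03% to 17.8% without cKO replicate 1, and higher from 15.5% to 27.5% without cKO replicate 3. Over all tested genes, 6 higher and 9 lower as deposited, the calls were 24 and 10 with a pseudocount of 0.1 FPKM, 0 and 5 with no filter, 14 and 9 with the filter at 5 FPKM, 95 and 66 with median-of-ratios scaling, 131 and 105 with quantile normalization, 2 and 3 with no intensity trend, and 109 and 63 with library weights. Leaving out each library gave 0 to 63 higher and 2 to 51 lower: 38 and 51 without cKO replicate 1, 63 and 11 without cKO replicate 3, and at most 1 and 6 without any of the other 4 libraries. The cause was not tested. With the replicate block 1 gene was called higher and 1 lower over all genes, and 0 of the 10. Same-numbered libraries correlated at -0.01, 0.04 and 0.07 in their deviations from group means, and 4 of 6 libraries correlated best with their own number. These values cannot decide whether the numbers pair the samples, and the main fit did not pair them. Depth limits Hey2 and Lfng most, with about 19.7 to 77.6 estimated fragments per library.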
